A study of Homo sapiens with 18 samples.

Results

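The 32 genes described here form the SREBP pathway, cholesterol synthesis and transport, and fatty acid synthesis and desaturation. They were taken by name from the deposited gene count table, which lists 33121 genes. All 32 were present, and all 32 were among the 13676 genes that passed the low-count filter and were tested. By role they comprise 5 genes of the SREBP pathway, 2 of sterol transport, 7 of the mevalonate pathway, 11 of the steps between squalene and cholesterol, 3 of fatty acid synthesis and 4 of fatty acid elongation and desaturation. The samples were RPE-1 cells, a human retinal pigment epithelial line immortalized with hTERT. Cells were transfected with an siRNA against MondoA (siMondoA, gene symbol MLXIP), an siRNA against Mlx (siMlx, gene symbol MLX) or a control siRNA (siControl), and were then given doxorubicin (DXR) at 150 ng/ml for 3 days or left untreated. These 6 groups held 3 libraries each, 18 in all. All libraries come from 1 cell line, the labels name no second siRNA for either target, and they do not say that the libraries of a group came from separate cultures, so the p-values speak for the spread among these libraries, which may be technical. The library names carry a different tag for untreated and for DXR libraries that the labels do not explain, so DXR and whatever the tags stand for cannot be told apart.

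MondoA and Mlx are bHLH zipper proteins that form a heterodimer and activate genes in response to glucose-derived metabolites through carbohydrate response elements built from E-boxes. The SREBPs, encoded by SREBF1 and SREBF2, are membrane-bound transcription factors of the endoplasmic reticulum. When sterols are low, SCAP escorts them to the Golgi for cleavage, and the freed domain activates genes of cholesterol synthesis, uptake and fatty acid synthesis. When sterols are high, the INSIG proteins hold SCAP in the endoplasmic reticulum. At many target promoters SREBPs act together with the factors NF-Y and Sp1.

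Total counts per library ran from 15503423 to 29219280. Levels are given as CPM, library-scaled counts after TMM normalization. A gene was called higher or lower at an adjusted p under 0.05 in edgeR's two-sided quasi-likelihood test, and every adjusted p below comes from that test unless another model is named. The value after ± is the standard error (SE) of the log2 fold change. The knockdowns were visible in their targets. MLXIP had 1.63, 2.58 and 2.86 CPM in siMondoA DXR libraries and 64.0, 63.2 and 66.6 CPM in siControl DXR libraries, and 3.34, 4.57 and 3.63 CPM in siMondoA untreated libraries, against 69.5, 72.9 and 63.7 CPM in siControl untreated libraries. MLX had 5.70, 4.93 and 5.94 CPM in siMlx DXR libraries and 26.4, 26.8 and 26.4 CPM in siControl DXR libraries, and 6.79, 7.12 and 7.10 CPM in siMlx untreated libraries, against 25.8, 27.4 and 25.7 CPM in siControl untreated libraries. The groups did not overlap in either gene. MLX was also higher with siMondoA, by a log2 fold change of 0.91 in untreated cells. TXNIP, a known target gene of MondoA, fell with both siRNAs, by log2 fold changes of -3.46 with siMondoA and -2.59 with siMlx in untreated cells.

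The cell line lacked most pigment epithelial markers. RPE65, RLBP1, TYR, DCT and TTR stayed below 1 CPM in every library, while MITF was at 17.5 to 35.2 CPM and KRT18 at 105.8 to 574 CPM. THY1 and VIM, which mesenchymal cells also make, were at 169 to 498 and 2642 to 4791 CPM. Both come from a list of 12 fibroblast markers. In that list COL1A1 was at 71.5 to 364, FAP at 68.2 to 170 and PDGFRB at 43.3 to 109.8 CPM. PDGFRA was at 8.32 to 34.3, POSTN at 2.03 to 26.8 and DCN at 0.404 to 13.1 CPM. COL1A2, COL3A1, LUM and S100A4 stayed at or below 2.18 CPM. Of the other cell types, 10 blood and endothelial markers summed to at most 4.75 CPM and 9 adipocyte and liver markers to at most 0.656 CPM per library. The summed level of 22 cell cycle genes was 335 to 452 CPM in siMondoA DXR libraries, 433 to 503 CPM in siMlx DXR libraries and 724 to 835 CPM in siControl DXR libraries. It was 780 to 1301 CPM in siMondoA untreated libraries and 2483 to 3113 CPM in siMlx untreated libraries, against 2507 to 3274 CPM in siControl untreated libraries. The groups with DXR and the siMondoA untreated group therefore differ from siControl untreated libraries in this list as well as in the genes below, and its part in the results was not tested. In bulk RNA, fewer cells of a state and less RNA per cell cannot be told apart.

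Promoter sequence was available from RefSeq (GRCh38.p14) for 28 of the 32 genes, as windows from 250 bases before to 50 bases after each start site. Motifs were searched on both strands: the NF-Y box ATTGG, the Sp1 box GGGCGG, the E-box CACGTG and the sterol regulatory element (SRE) in its looser form TCACNCCAC and in a strict form that contains it and is capitalized in SREBF2. An NF-Y box was present in 20 of the 28 genes, or 71.4%, against 42.9% of the 9830 tested genes with a window. Counted by window, it was in 63.2% of the 38 windows of the members and in 34.6% of all 35116 windows. The Sp1 box was in 27 of the 28 genes, or 96.4%, against 76.4% of tested genes with a window. The E-box was in 5 of the 28, or 17.9%, namely SCAP, INSIG1, ABCA1, LSS and SC5D, against 12.5% of tested genes and 7.26% of all windows. Of the 28, SREBF2 held the strict SRE, which 0.0456% of all windows hold, and it was the 1 member with the looser form, which 1.13% of all windows hold. A match describes these letters only, and a window without one says nothing of the factor.

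The promoters of SREBF2 and INSIG1 are printed because they carry the SRE and the E-box in 2 genes of the SREBP pathway itself, and those of STARD4, MSMO1 and SCD because these genes moved most with the siRNAs (STARD4, MSMO1) or between same-numbered libraries (SCD). Capitals mark the SRE, the E-box and NF-Y boxes, with CCAAT being ATTGG on the other strand. The windows are SREBF2 at chr22:41832855-41833154 (+ strand), INSIG1 at chr7:155297628-155297927 (+ strand), STARD4 at chr5:111512486-111512785 (- strand), MSMO1 at chr4:165327419-165327718 (+ strand) and SCD at chr10:100346983-100347282 (+ strand).
SREBF2: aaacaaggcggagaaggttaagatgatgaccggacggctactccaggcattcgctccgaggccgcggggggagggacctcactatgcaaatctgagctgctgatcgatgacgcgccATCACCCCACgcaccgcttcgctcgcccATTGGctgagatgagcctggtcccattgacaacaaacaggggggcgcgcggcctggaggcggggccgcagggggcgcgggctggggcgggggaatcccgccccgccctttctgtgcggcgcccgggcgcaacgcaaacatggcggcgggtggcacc
INSIG1: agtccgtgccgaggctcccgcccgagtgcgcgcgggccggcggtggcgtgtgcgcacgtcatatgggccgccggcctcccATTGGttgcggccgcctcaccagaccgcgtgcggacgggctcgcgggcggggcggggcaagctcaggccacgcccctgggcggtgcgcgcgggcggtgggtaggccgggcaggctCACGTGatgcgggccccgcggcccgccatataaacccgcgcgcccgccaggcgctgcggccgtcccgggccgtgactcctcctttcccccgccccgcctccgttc
STARD4: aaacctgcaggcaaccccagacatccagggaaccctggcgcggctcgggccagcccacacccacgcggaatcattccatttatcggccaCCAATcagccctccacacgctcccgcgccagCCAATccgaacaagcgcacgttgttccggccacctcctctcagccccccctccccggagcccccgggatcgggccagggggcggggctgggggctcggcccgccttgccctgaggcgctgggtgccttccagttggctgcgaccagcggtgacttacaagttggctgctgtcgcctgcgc
MSMO1: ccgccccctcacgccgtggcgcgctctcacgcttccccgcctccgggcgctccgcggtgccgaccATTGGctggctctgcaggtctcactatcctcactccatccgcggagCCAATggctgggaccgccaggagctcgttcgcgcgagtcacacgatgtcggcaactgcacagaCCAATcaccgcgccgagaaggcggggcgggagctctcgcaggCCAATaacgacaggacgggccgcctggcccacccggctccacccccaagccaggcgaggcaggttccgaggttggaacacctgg
SCD: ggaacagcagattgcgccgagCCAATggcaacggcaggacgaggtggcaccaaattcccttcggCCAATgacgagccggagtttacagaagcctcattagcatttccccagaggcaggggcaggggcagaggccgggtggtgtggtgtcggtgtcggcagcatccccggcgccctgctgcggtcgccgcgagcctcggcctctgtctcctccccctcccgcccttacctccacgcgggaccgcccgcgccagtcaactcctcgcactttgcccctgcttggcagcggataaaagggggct
In SREBF2 the SRE starts 134 bases and the NF-Y box 106 bases before the start site. In INSIG1 an NF-Y box starts 170 bases and the E-box 55 bases before it. STARD4 has NF-Y boxes starting 161 and 130 bases upstream, SCD has them 229 and 186 bases upstream, and MSMO1 has 4, starting 185, 139, 76 and 34 bases upstream.

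Per kilobase of gene length, the levels of the 32 genes in siControl untreated libraries spanned a wide range. The highest mean RPKM belonged to ACLY, at 122 ± 7.36 (SD, n = 3), followed by SCD at 68.3 ± 17.8, FDPS at 53.1 ± 3.54, FADS2 at 38.5 ± 3.69 and EBP at 37.0 ± 2.25. The ranges of FDPS and SCD overlapped, as did those of FADS2 and EBP. The lowest belonged to STARD4 at 5.52 ± 0.540, SC5D at 5.43 ± 0.638, ABCA1 at 4.76 ± 0.800, INSIG2 at 4.57 ± 0.549 and HSD17B7 at 2.51 ± 0.324 RPKM. HSD17B7 stood below the other 31 without overlap, while the 4 above it overlapped one another. Summed over the 32 genes, the level was 3060 to 3496 CPM in siMondoA DXR libraries, 3005 to 3417 CPM in siMlx DXR libraries and 3020 to 3400 CPM in siControl DXR libraries. In untreated libraries it was 2560 to 3237 CPM with siMondoA, 2651 to 3227 CPM with siMlx and 2538 to 3120 CPM with siControl, so the siRNA groups overlapped in each condition.

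Much of the spread within a group was shared by libraries of the same number. In untreated cells, 23 of the 32 genes had their lowest level in the third library of all 3 siRNA groups, against 9.6% of all genes tested. In DXR cells, 18 of the 32 had their lowest level in the second library of all 3 groups, against 7.77% of all genes tested. None of the 32 was lowest in the first untreated library of all groups (5.11% of all genes) and none in the second (4.41%), while in DXR cells 1 was lowest in the first (8.61%) and 3 in the third (10.2%). SCD, the stearoyl-CoA desaturase that makes oleate, showed the largest deviation in untreated cells. It had 395, 428 and 253 CPM in siMondoA, 427, 466 and 323 CPM in siMlx and 404, 437 and 253 CPM in siControl untreated libraries. The third library was the lowest in each group, and the groups overlapped over nearly their whole range. SREBF1, DHCR7, SQLE, FASN and HMGCS1 followed SCD, while FADS1, SCAP, FDPS, EBP and ELOVL6 deviated by less than 0.1 on the log2 scale on average. The median deviation of the 32 genes in the third untreated library was -0.26 with siMondoA, -0.16 with siMlx and -0.26 with siControl, and that of all genes tested lay between -0.01 and 0.02. Outside the 32, the pattern differed between lists of lipid genes. In untreated cells (9.6% of all genes) it held for 5 of 16 genes of acetyl-CoA, NADPH and acyl activation. It also held there for 5 of 15 other sterol transport and esterification genes. It held for 1 of 19 fatty acid oxidation genes and 1 of 18 glycerolipid synthesis genes. In DXR cells (7.77% of all genes) the counts in these lists were 2 of 16, 3 of 15, 0 of 19 and 0 of 18. It held for 0 of 22 cell cycle genes. The labels mark no batch in these libraries. The number of a library was therefore added as a block within each condition in a second edgeR model, whose calls are given below where they differ in the 4 comparisons whose same-numbered libraries deviated together. Differing calls with siMlx and between the knockdowns in untreated cells, and for the interactions of siMlx with DXR, are listed in the last section.

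**Figure D1:**
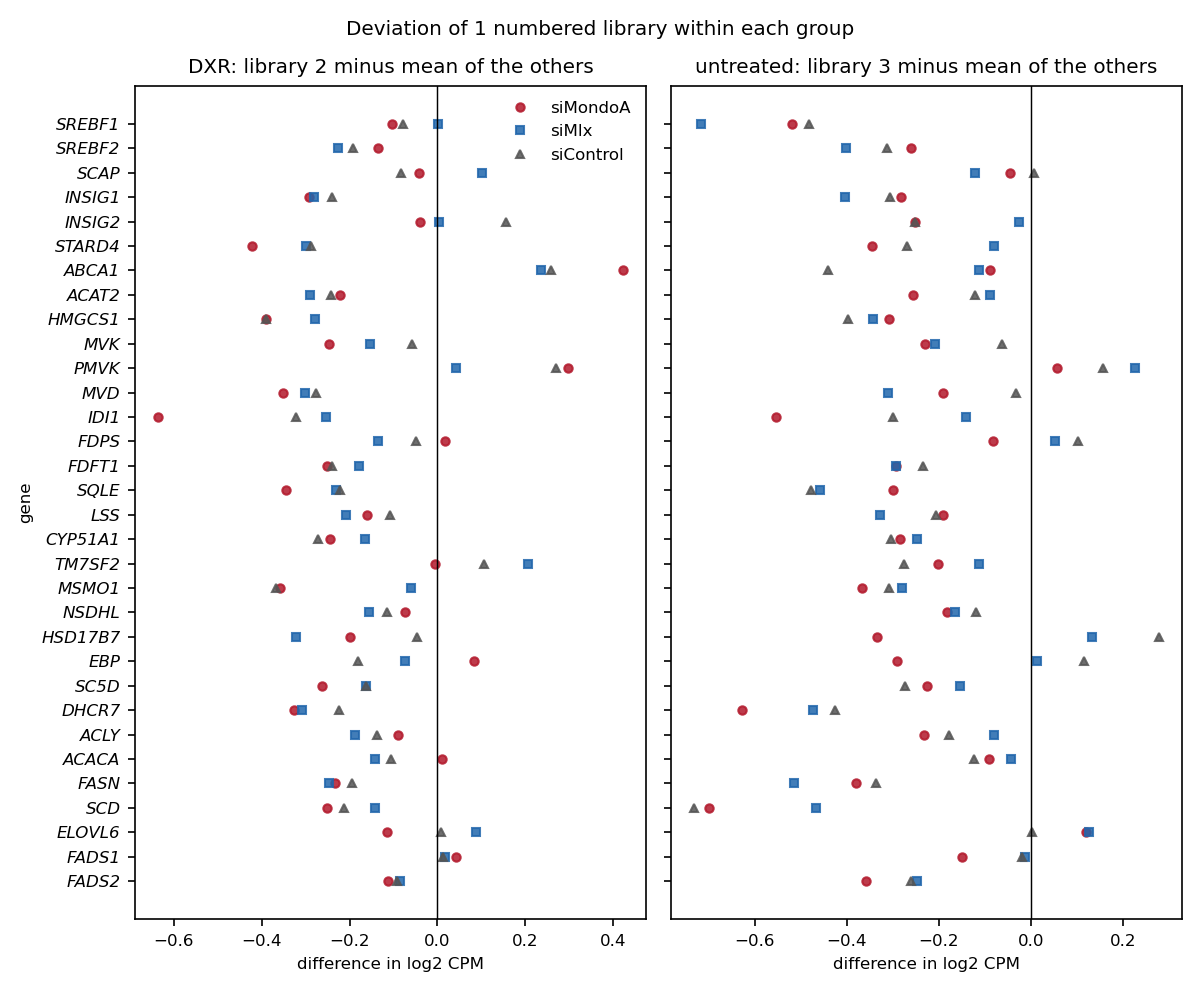
Deviation of the second DXR library (left) and the third untreated library (right) of each siRNA group from the mean of the other libraries of that group, in log2 CPM, for the 32 genes in the order of their roles; red circles are siMondoA, blue squares siMlx and grey triangles siControl. Most points lie left of 0 in both panels, with SCD farthest left on average in untreated cells, at -0.70 with siMondoA, -0.47 with siMlx and -0.73 with siControl, while FADS1, SCAP and ELOVL6 lie near 0.

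Across the 9 pairwise comparisons without the replicate block, the share of the 32 genes that changed did not exceed that of all genes, and their median fold changes were small. With siMondoA in untreated cells 8 were higher, against 23.3% of all genes, and 4 lower, against 23.3% (46.6% changed in all). With siMondoA in DXR cells 2 were higher (10.9% of all genes) and 2 lower (13.9%, with 24.8% changed in all). With siMlx in untreated cells 11 were higher (24.9%) and 3 lower (23%, with 47.9% changed in all), and in DXR cells 3 were higher (14%) and 4 lower (16.2%, with 30.2% changed in all). Most of the members that moved with an siRNA in untreated cells were therefore higher.

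With DXR, 8 rose (26.2% of all genes) and 5 fell (28%, with 54.2% changed in all) in siMondoA cells. In siMlx cells 10 rose (30.9%) and 7 fell (31.2%, with 62.1% changed in all), and in siControl cells 12 rose (28.1%) and 6 fell (28.6%, with 56.7% changed in all). Between the knockdowns, 7 were higher (28.5%) and 8 lower (30.4%, with 58.9% changed in all) with siMondoA than with siMlx in untreated cells. In DXR cells 5 were higher (18.9%) and 3 lower (20%, with 39% changed in all). The siMondoA and siMlx comparisons share the siControl libraries.

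An interaction, the difference of an siRNA's effect between DXR and untreated cells, was called for 2 members with siMondoA, both positive, where 5.84% of all genes were positive and 4.28% negative (10.1% in all). It was called for 2 with siMlx, both negative, where 6.43% were positive and 5.81% negative (12.2% in all). These shares of the members are near those of all genes.

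The libraries of the compared groups did not overlap in 10 of the 32 members for siMondoA against siControl in untreated cells (55.3% of all genes) and in 3 in DXR cells (38.9%). The count was 13 for siMlx in untreated cells (54%) and 10 in DXR cells (43.4%). For DXR against untreated cells it was 11 in siMondoA (59.7%), 17 in siMlx (65.7%) and 19 in siControl cells (63.1%), and between siMondoA and siMlx it was 13 in untreated (63.5%) and 10 in DXR cells (47.3%). In each of the 9 the share of the members was below that of all genes, a difference that was not tested.

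The members' median log2 fold change was 0.03 with siMondoA and 0.17 with siMlx in untreated cells, against 0.02 and 0.02 for all genes, and 0.16 with DXR in siControl cells, against -0.01 for all genes. With the replicate block within each condition, 15 members changed with siMondoA in untreated cells (54.3% of all genes). In DXR cells the block gave 6 higher and 3 lower with siMondoA (34.2% of all genes changed), 12 higher and 6 lower with siMlx (39.6%), and 8 higher and 9 lower between the knockdowns (47.4%). In these last 2 the members' share exceeded that of all genes. The block was added after the shared deviation of these members was seen, and it removes that deviation. The excess is therefore no independent result about the members.

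**Figure D2:**
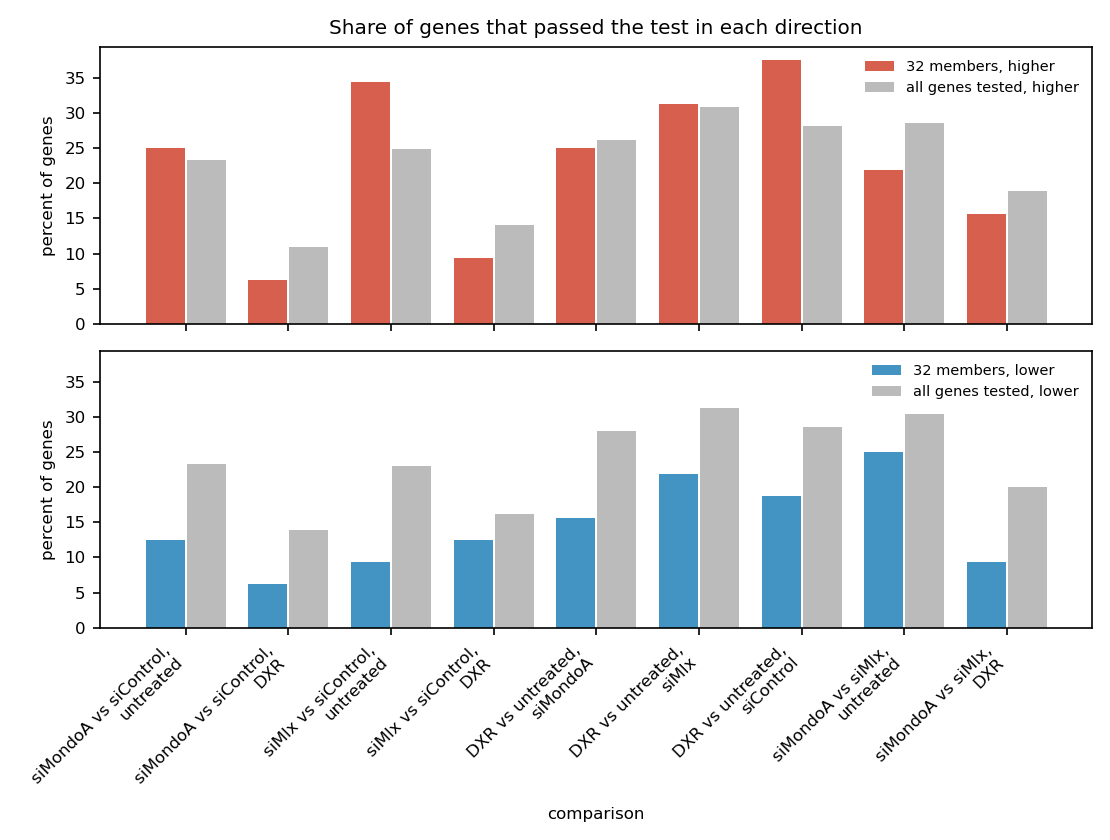
Percent of the 32 genes (coloured) and of all 13676 tested genes (grey) that were higher (top) or lower (bottom) at an adjusted p under 0.05 in each of 9 comparisons. The coloured bars for lower genes are below the grey ones in all 9 comparisons, and among higher genes the coloured bar exceeds the grey one most clearly for siMlx in untreated cells (11 of 32, against 24.9%) and for DXR in siControl cells (12 of 32, against 28.1%).

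In the SREBP pathway, DXR lowered SREBF1 in siMondoA and siControl cells, SCAP was higher with siMondoA, and INSIG1 was higher with siMlx. SREBF1, the gene of the SREBP that mainly drives fatty acid synthesis, had 41.9, 40.0 and 42.5 CPM in siControl DXR libraries, against 71.4, 84.6 and 55.6 CPM in siControl untreated libraries. The groups did not overlap, although the untreated libraries differed widely, and SREBF1 fell by a log2 fold change of -0.76 ± 0.16, adjusted p = 0.000519. In siMondoA cells it fell by -0.56 ± 0.17, adjusted p = 0.00784 (lost without the second siMondoA untreated library, adjusted p 2.75e-12 to 0.059 over 15 alternatives), and in siMlx cells the value was -0.34 ± 0.17, adjusted p = 0.0854. With the replicate block SREBF1 was also lower in untreated cells with siMondoA (-0.25, adjusted p = 7e-04) and with siMlx (-0.39, adjusted p = 4.35e-06). The model without the block called neither, with adjusted p of 0.236 for siMondoA and 0.0623 for siMlx. The siMlx comparison is outside those whose same-numbered libraries deviated together. SREBF2, the gene of the SREBP that mainly drives cholesterol synthesis, was called in none of the 9 comparisons, with 118 to 139 CPM in siControl DXR libraries and 105 to 131 CPM in siControl untreated libraries. The block called it in 2 of the DXR comparisons, higher with siMlx than with siControl (0.16, adjusted p = 0.00665) and lower with siMondoA than with siMlx (-0.25, adjusted p = 8.27e-05).

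SCAP, the escort of the SREBPs, rose with siMondoA. It had 78.0, 75.0 and 76.5 CPM in siMondoA DXR libraries, against 66.4, 63.7 and 68.5 CPM in siControl DXR libraries. It had 90.0, 91.6 and 88.0 CPM in siMondoA untreated libraries, against 71.8, 73.0 and 72.8 CPM in siControl untreated libraries. All 3 siMondoA libraries stood above all 3 siControl libraries in both conditions, by log2 fold changes of 0.21 ± 0.05, adjusted p = 0.0051 with DXR and 0.31 ± 0.05, adjusted p = 4.17e-05 without. It was also higher with siMondoA than with siMlx, by 0.27, adjusted p = 0.000294 in DXR cells and 0.23, adjusted p = 0.00051 in untreated cells. With DXR, SCAP fell in siMondoA cells (-0.23, adjusted p = 0.000713) and in siMlx cells (-0.27, adjusted p = 0.000139). The fall in siControl cells (-0.13, adjusted p = 0.0349) was lost in 11 of 15 alternative settings.

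INSIG1, the SREBP-induced protein that retains SCAP, rose with siMlx. It had 80.5, 60.1 and 66.2 CPM in siMlx DXR libraries, against 57.5, 42.8 and 44.5 CPM in siControl DXR libraries, and 97.0, 106 and 76.5 CPM in siMlx untreated libraries, against 62.1, 73.8 and 54.7 CPM in siControl untreated libraries. The groups did not overlap in either condition, and the log2 fold changes were 0.51 ± 0.15, adjusted p = 0.0138 with DXR and 0.56 ± 0.15, adjusted p = 0.00385 without. With siMondoA the values were 0.18, adjusted p = 0.444 in DXR cells and 0.24, adjusted p = 0.186 in untreated cells, and both were called higher with the replicate block (adjusted p = 0.00837 and 0.00016). Between the knockdowns INSIG1 was not called without the block (adjusted p = 0.0832 in DXR and 0.0745 in untreated cells), and the block called it lower with siMondoA than with siMlx in DXR cells (adjusted p = 4.55e-06). DXR lowered INSIG1 under every siRNA, by -0.46 in siMondoA, -0.44 in siMlx and -0.39 in siControl cells (adjusted p = 0.0136, 0.0146 and 0.0308). In siMlx and siControl cells the DXR and untreated groups overlapped, and all 3 calls were lost when the second DXR libraries were left out (adjusted p 2e-09 to 0.0786, 4.99e-09 to 0.0842 and 9.7e-08 to 0.15 over 15 alternatives). The falls in siMondoA and in siMlx cells were also lost without the second untreated or the second DXR library of that siRNA. The fall in siControl cells was lost in 6 of 15 alternatives. These include DESeq2, the first or second siControl untreated library left out, and the second or the third siControl DXR library left out. The siMlx call in DXR cells was lost without the second or the third siControl DXR library or the first siMlx DXR library (adjusted p 1.71e-10 to 0.0725 over 15 alternatives). INSIG2, its paralog that is not induced by SREBPs, was higher with siMlx in untreated cells (0.35, adjusted p = 0.0348). That call was lost without the second or the third siControl library or without any of the 3 siMlx libraries (adjusted p 0.00136 to 0.176 over 15 alternatives), and with the block INSIG2 was also higher with siMlx in DXR cells (adjusted p = 0.0226). Among 11 other genes of SREBP processing and sterol-regulated degradation, siMondoA lowered 8 and raised 0 in untreated cells, where 23.3% of all genes were lower and 23.3% higher. Among the 8 were ERLIN1 (-0.56) and ERLIN2 (-0.53). ERLIN1 and ERLIN2 form a scaffold in the endoplasmic reticulum. With siMlx in untreated cells 3 of the 11 were higher (24.9% of all genes) and 3 lower (23%).

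STARD4 (chr5:111496033-111512590, GRCh38), a soluble carrier that moves cholesterol between membranes, showed the largest fold change of the 32 with siMondoA in untreated cells and rose most with DXR under both knockdown siRNAs. It had 35.9, 28.9 and 41.7 CPM in siMondoA DXR, 29.4, 24.5 and 30.9 CPM in siMlx DXR and 49.3, 40.3 and 49.1 CPM in siControl DXR libraries. It had 10.7, 14.6 and 9.85 CPM in siMondoA untreated and 13.1, 12.5 and 12.1 CPM in siMlx untreated libraries, against 26.9, 28.3 and 22.9 CPM in siControl untreated libraries. Without DXR both knockdown groups stood below the siControl group with no overlap. With DXR the siMlx group did as well, whereas the highest siMondoA library passed the lowest siControl library.

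In untreated cells STARD4 fell with siMondoA by a log2 fold change of -1.13 ± 0.15, adjusted p = 2.97e-06, to 0.457 of the siControl level, and with siMlx by -1.05 ± 0.15, adjusted p = 6.87e-06. In DXR cells the differences were -0.71 ± 0.13, adjusted p = 0.00043 with siMlx and -0.38 ± 0.13, adjusted p = 0.0405 with siMondoA, and the siMondoA call was lost without the first or the third siControl DXR library, the first or second siMondoA DXR library or all second DXR libraries (adjusted p 0.000196 to 0.206 over 15 alternatives). DXR raised STARD4 in siMondoA cells (1.58 ± 0.15, adjusted p = 3.68e-08), in siMlx cells (1.17 ± 0.15, adjusted p = 1.09e-06) and in siControl cells (0.83 ± 0.13, adjusted p = 2.46e-05). The rise in siMondoA cells exceeded that in siControl cells by 0.75 ± 0.20 in a test of the interaction (adjusted p = 0.0202). The corresponding difference for siMlx was 0.34, with an interval of -0.08 to 0.75 (adjusted p = 0.303). The block called it higher (adjusted p = 0.0317), outside the 4 comparisons whose same-numbered libraries deviated together. The knockdowns did not differ detectably from each other in untreated cells, with an interval of -0.41 to 0.25 for the log2 fold change (adjusted p = 0.684). In DXR cells STARD4 was higher with siMondoA than with siMlx under the replicate block (0.32, adjusted p = 0.00121), where the model without it gave 0.0625. STARD4 shares 124 exonic bases with the antisense gene STARD4-AS1, which was counted at 2121 reads over all libraries, against 9731 for STARD4.

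**Figure D3:**
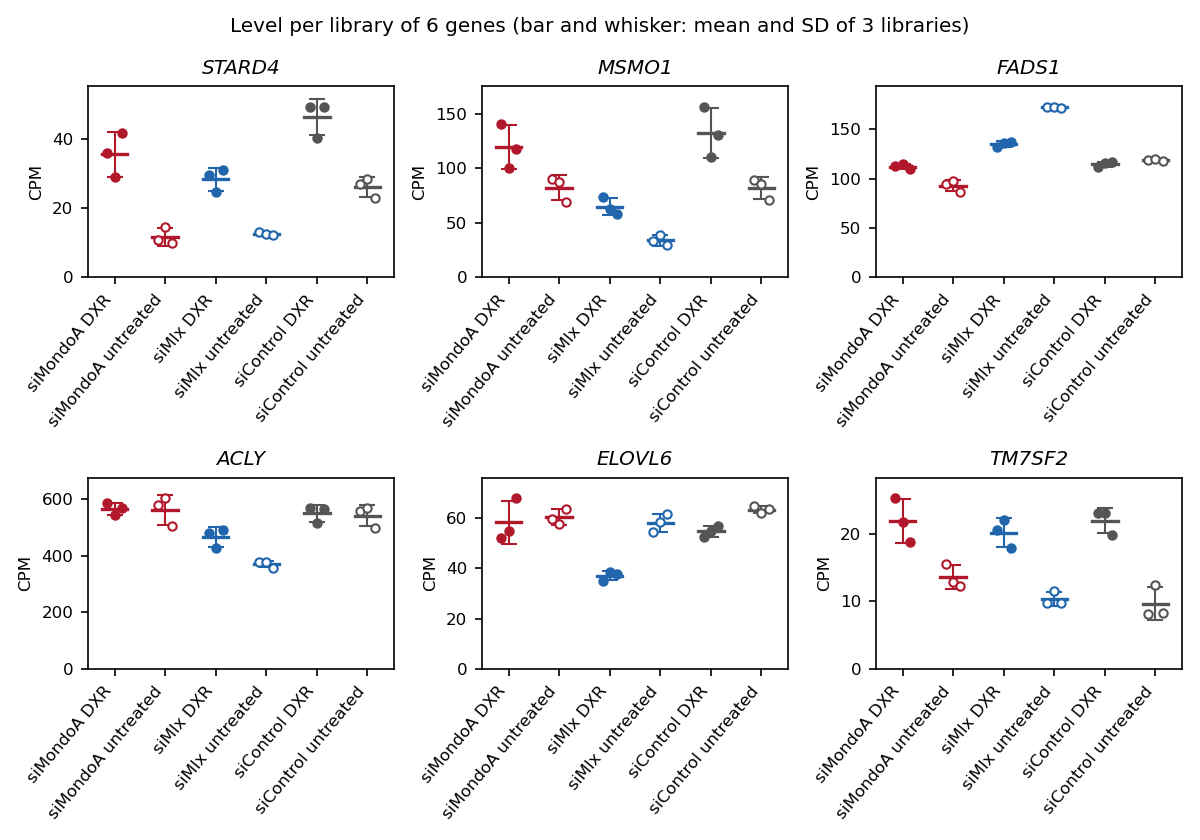
Level in CPM of STARD4, MSMO1, FADS1, ACLY, ELOVL6 and TM7SF2 in each of 3 libraries per group, with filled points for DXR and open points for untreated libraries, and bars and whiskers for the mean and SD. STARD4 is low with both knockdowns in untreated cells (9.85 to 14.6 CPM), MSMO1 and ACLY are low with siMlx alone, FADS1 is highest in siMlx untreated libraries, ELOVL6 is low in siMlx DXR libraries and TM7SF2 is higher in every DXR group than in its untreated group.

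ABCA1 is the transporter that exports cholesterol to apolipoprotein A-I and a target of the oxysterol receptor LXR. In untreated cells ABCA1 moved in opposite directions with the knockdowns. It had 71.1, 70.6 and 65.5 CPM in siMlx untreated and 42.1, 43.0 and 40.0 CPM in siMondoA untreated libraries, against 56.6, 63.0 and 44.0 CPM in siControl untreated libraries. Every siMlx library was above and every siMondoA library below the siControl range, by 0.35, adjusted p = 0.0258 and -0.38, adjusted p = 0.0175. The siMlx call was lost without the third siControl or the first or second siMlx library (adjusted p 5.92e-05 to 0.161 over 15 alternatives), and the siMondoA call without the first or second siControl or the third siMondoA library (adjusted p 1.67e-06 to 0.106 over 15 alternatives). In DXR cells ABCA1 was higher with siMlx (0.33, adjusted p = 0.0496) and was not called with siMondoA (adjusted p = 0.371). That siMlx call was lost in 6 of 15 alternatives (adjusted p 0.000117 to 0.195). The difference between siMondoA and siMlx held in all 15 alternatives, at -0.73 ± 0.13, adjusted p = 5.42e-05 in untreated cells and -0.50 ± 0.13, adjusted p = 0.00351 in DXR cells. Of the 15 other genes of sterol transport and esterification, 5 were higher and 3 lower with siMondoA in untreated cells (23.3% of all genes each). With siMlx 4 were higher and 6 lower there (24.9% and 23% of all genes). TMEM97, a regulator of the sterol carrier NPC1, fell with siMondoA (-1.36). OSBP, the oxysterol-binding protein, fell with siMlx (-1.76), as did SOAT1, which esterifies cholesterol (-0.51). LRP8, a lipoprotein receptor, was lower with either siRNA (-0.54 with siMondoA and -0.71 with siMlx), while SCARB1, a receptor for HDL, was higher with siMlx (0.67).

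Of the 7 mevalonate pathway genes, 1 was higher and 1 lower with siMondoA in untreated cells (23.3% of all genes each). With siMlx 3 were higher (24.9% of all genes). HMGCS1, which makes HMG-CoA, had 78.8, 83.7 and 65.6 CPM in siMondoA untreated libraries, against 59.9, 52.9 and 42.7 CPM in siControl untreated libraries. It was higher with siMondoA without overlap, by 0.55 ± 0.14, adjusted p = 0.00323. In DXR cells it was higher with siMondoA under the block (0.23, adjusted p = 0.00237), where the model without it gave 0.268. ACAT2, the cytosolic thiolase at the head of the pathway, was lower with siMondoA (-0.28, adjusted p = 0.0205). With siMlx in untreated cells the genes that rose were MVK (0.30, adjusted p = 0.0147), PMVK (0.29, adjusted p = 0.0339) and MVD (0.38, adjusted p = 0.0108), which are the kinases and the decarboxylase that turn mevalonate into isopentenyl diphosphate. Each was lost without 1 or more single libraries: MVD without the second siMlx library, MVK without that or the first siControl library, and PMVK without the first or second siControl or the first or the third siMlx library. Their adjusted p ran over 0.00096 to 0.073 for MVK, 0.00627 to 0.165 for PMVK and 5.43e-05 to 0.0888 for MVD in 15 alternatives. The ACAT2 call was lost without the first or second siControl or the third siMondoA library (adjusted p 0.000288 to 0.111 over 15 alternatives). In DXR cells none of the 7 was called with either siRNA, and with the block siMlx raised PMVK and MVD and lowered ACAT2 and IDI1 (adjusted p = 0.0243, 0.000833, 0.00247 and 0.0358). With the block MVK and PMVK were lower and HMGCS1 and IDI1 higher with siMondoA than with siMlx in DXR cells (adjusted p = 0.0116, 0.0239, 0.000347 and 0.0255).

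MVD was the mevalonate gene that DXR raised under every siRNA. It had 36.1, 27.8 and 34.8 CPM in siMondoA DXR libraries, against 24.7, 24.9 and 21.7 CPM in siMondoA untreated libraries, and 44.4, 35.0 and 42.0 CPM in siMlx DXR libraries, against 28.5, 32.6 and 24.6 CPM in siMlx untreated libraries. In siControl cells it had 34.7, 29.1 and 35.8 CPM with DXR, against 21.7, 22.7 and 21.7 CPM without. No DXR group overlapped its untreated group, and the log2 fold changes were 0.46, 0.50 and 0.59 in siMondoA, siMlx and siControl cells (adjusted p = 0.00229, 0.000742 and 0.000186). HMGCS1 rose with DXR in siControl cells (0.52, adjusted p = 0.00402), and ACAT2 fell there (-0.30, adjusted p = 0.0111) and in siMlx cells (-0.51, adjusted p = 0.000134). The ACAT2 call in siControl cells was lost without the second siControl DXR library (adjusted p 0.000269 to 0.0576 over 15 alternatives). ACAT2 shares 1141 exonic bases with SOD2 and 397 with TCP1 on the opposite strand, so its counts are uncertain if strand was not used. IDI1, which isomerizes the isoprenoid unit, and FDPS, which joins the units to farnesyl diphosphate, were called in none of the 7 comparisons with siControl or with untreated cells.

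The 11 genes between squalene and cholesterol form the largest of the role groups. With siMondoA in untreated cells 6 were higher and 0 lower (23.3% of all genes each), with a median log2 fold change of 0.32 against 0.02 for all genes. These were SQLE, LSS, CYP51A1, TM7SF2, HSD17B7 and SC5D. With siMlx in untreated cells 3 were higher (SQLE, LSS and NSDHL) and MSMO1 was lower (24.9% and 23% of all genes). With DXR in siControl cells 8 rose and EBP fell (28.1% and 28.6% of all genes), with a median of 0.45 against -0.01 for all genes. Among the 8, the calls for SQLE and CYP51A1 were lost without the third siControl untreated library (adjusted p 1.08e-07 to 0.072 and 6.83e-06 to 0.0541 over 15 alternatives).

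SQLE, the squalene epoxidase, had 74.4, 75.8 and 61.0 CPM in siMondoA untreated and 78.9, 80.2 and 57.9 CPM in siMlx untreated libraries, against 56.0, 59.7 and 41.5 CPM in siControl untreated libraries. The siMondoA group stood above the siControl group without overlap, while the lowest siMlx library lay inside the siControl range, and the log2 fold changes were 0.43 ± 0.14, adjusted p = 0.0146 and 0.47 ± 0.14, adjusted p = 0.00861. In DXR cells SQLE was called higher with both siRNAs under the block only (adjusted p = 0.00185 with siMondoA and 1.76e-05 with siMlx). LSS, which closes the ring of lanosterol, rose by 0.32, adjusted p = 0.00676 with siMondoA and 0.26, adjusted p = 0.02 with siMlx in untreated cells. CYP51A1, the lanosterol demethylase, rose by 0.38, adjusted p = 0.00998 with siMondoA, and SC5D, a late desaturase, by 0.32, adjusted p = 0.0198. FDFT1, which makes squalene, was called in none of the 9 comparisons. In the comparisons whose same-numbered libraries deviated together, the block called it higher with siMondoA in untreated cells (0.15, adjusted p = 0.00491) and with siMlx in DXR cells (0.13, adjusted p = 0.0248). Outside them the block called FDFT1 higher with siMlx in untreated cells (0.21, adjusted p = 0.000218). The block also called LSS higher with siMlx in DXR cells (adjusted p = 0.0109) and CYP51A1 higher in DXR cells with siMondoA (adjusted p = 0.0209) and with siMlx (adjusted p = 0.00549). The calls for SQLE, CYP51A1 and SC5D with siMondoA in untreated cells were each lost without the third siControl untreated library. Over 15 alternatives their adjusted p ran over 1.63e-07 to 0.0985, 1.67e-06 to 0.0656 and 1.07e-05 to 0.139. The SQLE call with siMlx was lost without that library or the second siMlx library (adjusted p 7.32e-09 to 0.0599 over 15 alternatives), and the LSS call without either of them or the first siMlx library (adjusted p 9.48e-05 to 0.106 over 15 alternatives).

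HSD17B7, a ketoreductase of the demethylation steps, was higher with siMondoA in both conditions, with and without the block. It had 10.2, 8.92 and 10.2 CPM in siMondoA DXR libraries, against 7.08, 6.96 and 7.29 CPM in siControl DXR libraries, and 8.07, 9.86 and 7.07 CPM in siMondoA untreated libraries, against 4.95, 4.63 and 5.81 CPM in siControl untreated libraries. The groups did not overlap, and the log2 fold changes were 0.46 ± 0.13, adjusted p = 0.0122 with DXR and 0.70 ± 0.13, adjusted p = 0.000178 without. The untreated call held in all 15 alternatives. With siMlx it was not called, with intervals of -0.16 to 0.39 in DXR cells and -0.09 to 0.48 in untreated cells (adjusted p = 0.56 and 0.256). A pseudogene copy, HSD17B7P2, was counted at 99 reads over all libraries, so reads shared between them cannot be resolved.

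MSMO1 (chr4:165327623-165343160, GRCh38), the methylsterol oxidase that removes the methyl groups at carbon 4 of sterols, fell with siMlx and not with siMondoA. It had 73.6, 62.8 and 58.1 CPM in siMlx DXR and 141, 100.3 and 117 CPM in siMondoA DXR libraries, against 157, 111 and 130.0 CPM in siControl DXR libraries. It had 33.1, 39.1 and 29.6 CPM in siMlx untreated and 90.3, 87.7 and 69.0 CPM in siMondoA untreated libraries, against 89.2, 85.5 and 70.5 CPM in siControl untreated libraries. All siMlx libraries stood below the other groups of their condition, and the siMondoA and siControl groups overlapped. The log2 fold change with siMlx was -1.03 ± 0.14, adjusted p = 1.47e-05 in DXR cells and -1.27 ± 0.15, adjusted p = 7.65e-07 in untreated cells. With siMondoA MSMO1 was not called, with intervals of -0.44 to 0.14 with DXR and -0.28 to 0.31 without (adjusted p = 0.48 and 0.948). Between siMondoA and siMlx MSMO1 differed by 0.88 ± 0.14, adjusted p = 5.61e-05 in DXR cells and 1.28 ± 0.15, adjusted p = 3.98e-07 in untreated cells, which held in every alternative. The enzyme that acts beside it, NSDHL, was higher with siMlx in untreated cells (0.33, adjusted p = 0.00288), opposite in direction to MSMO1.

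DXR raised MSMO1 by 0.53, adjusted p = 0.00346 in siMondoA, 0.93, adjusted p = 2.24e-05 in siMlx and 0.70, adjusted p = 0.000281 in siControl cells. Neither interaction was called, with intervals of -0.58 to 0.25 for siMondoA and -0.19 to 0.66 for siMlx. TM7SF2, a sterol reductase, showed the largest rise with DXR in siControl cells among the 32. It had 25.3, 21.7 and 18.7 CPM in siMondoA DXR libraries, against 15.6, 12.8 and 12.3 CPM in siMondoA untreated libraries, and 20.5, 22.0 and 17.8 CPM in siMlx DXR libraries, against 9.71, 11.6 and 9.81 CPM in siMlx untreated libraries. In siControl cells it had 23.0, 23.0 and 19.9 CPM with DXR, against 8.19, 12.4 and 8.33 CPM without.

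No DXR group of TM7SF2 overlapped its untreated group. The rise was 0.69 ± 0.14, adjusted p = 0.000459 in siMondoA, 0.96 ± 0.15, adjusted p = 1.46e-05 in siMlx and 1.20 ± 0.14, adjusted p = 8.13e-07 in siControl cells. In untreated cells TM7SF2 was higher with siMondoA than with siControl (0.51, adjusted p = 0.00885), with 1 siControl library inside the siMondoA range and the call lost without the first siControl or the first siMondoA library (adjusted p 6.52e-05 to 0.0596 over 15 alternatives), and in DXR cells the interval of the difference was -0.29 to 0.29 (adjusted p = 0.99). The interaction with siMondoA was not called (-0.51, adjusted p = 0.122), and the block called it (adjusted p = 0.0197). The block also called negative siMondoA interactions for HMGCS1, SQLE, LSS and CYP51A1 (adjusted p = 0.00435, 0.0364, 0.01 and 0.0359), where the model without it gave 0.333, 0.554, 0.209 and 0.443. SC5D rose with DXR in siMondoA (0.33, adjusted p = 0.0154), siMlx (0.58, adjusted p = 0.000145) and siControl cells (0.52, adjusted p = 0.000389). The siMondoA call was lost without the second or the third siMondoA untreated library or the first siMondoA DXR library (adjusted p 0.000174 to 0.102 over 15 alternatives). DHCR7, which makes cholesterol in the last step of one branch, rose in siMlx (0.42, adjusted p = 0.0313) and siControl cells (0.56, adjusted p = 0.00631). The siMlx call was lost without the third siMlx untreated library or the first or the third siMlx DXR library (adjusted p 4.64e-08 to 0.171 over 15 alternatives). In DXR cells the block called DHCR7 lower with siMondoA than with siControl (adjusted p = 0.0465) and than with siMlx (adjusted p = 0.00178).

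EBP, the isomerase that shifts the sterol double bond, went the other way. It had 33.6, 31.5 and 26.4 CPM in siMondoA DXR libraries, against 45.1, 48.5 and 38.2 CPM in siMondoA untreated libraries, and 33.1, 29.1 and 28.2 CPM in siMlx DXR libraries, against 41.9, 43.5 and 43.1 CPM in siMlx untreated libraries. In siControl cells it had 34.5, 29.2 and 31.8 CPM with DXR, against 39.6, 41.6 and 44.0 CPM without. No DXR group overlapped its untreated group, and EBP fell by -0.53, -0.51 and -0.39 in siMondoA, siMlx and siControl cells (adjusted p = 0.000101, 0.000112 and 0.0014), in every alternative. Among 6 other genes of sterol synthesis, LBR, a nuclear envelope protein with the same sterol reductase activity as TM7SF2, fell with DXR in siMondoA (-1.04), siMlx (-1.80) and siControl cells (-1.37). LBR and TM7SF2 thus moved in opposite directions under each siRNA. LBR was lower with siMondoA than with siControl in untreated cells (-0.77), as was POR, the electron donor of sterol oxidations (-0.57).

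**Figure D4:**
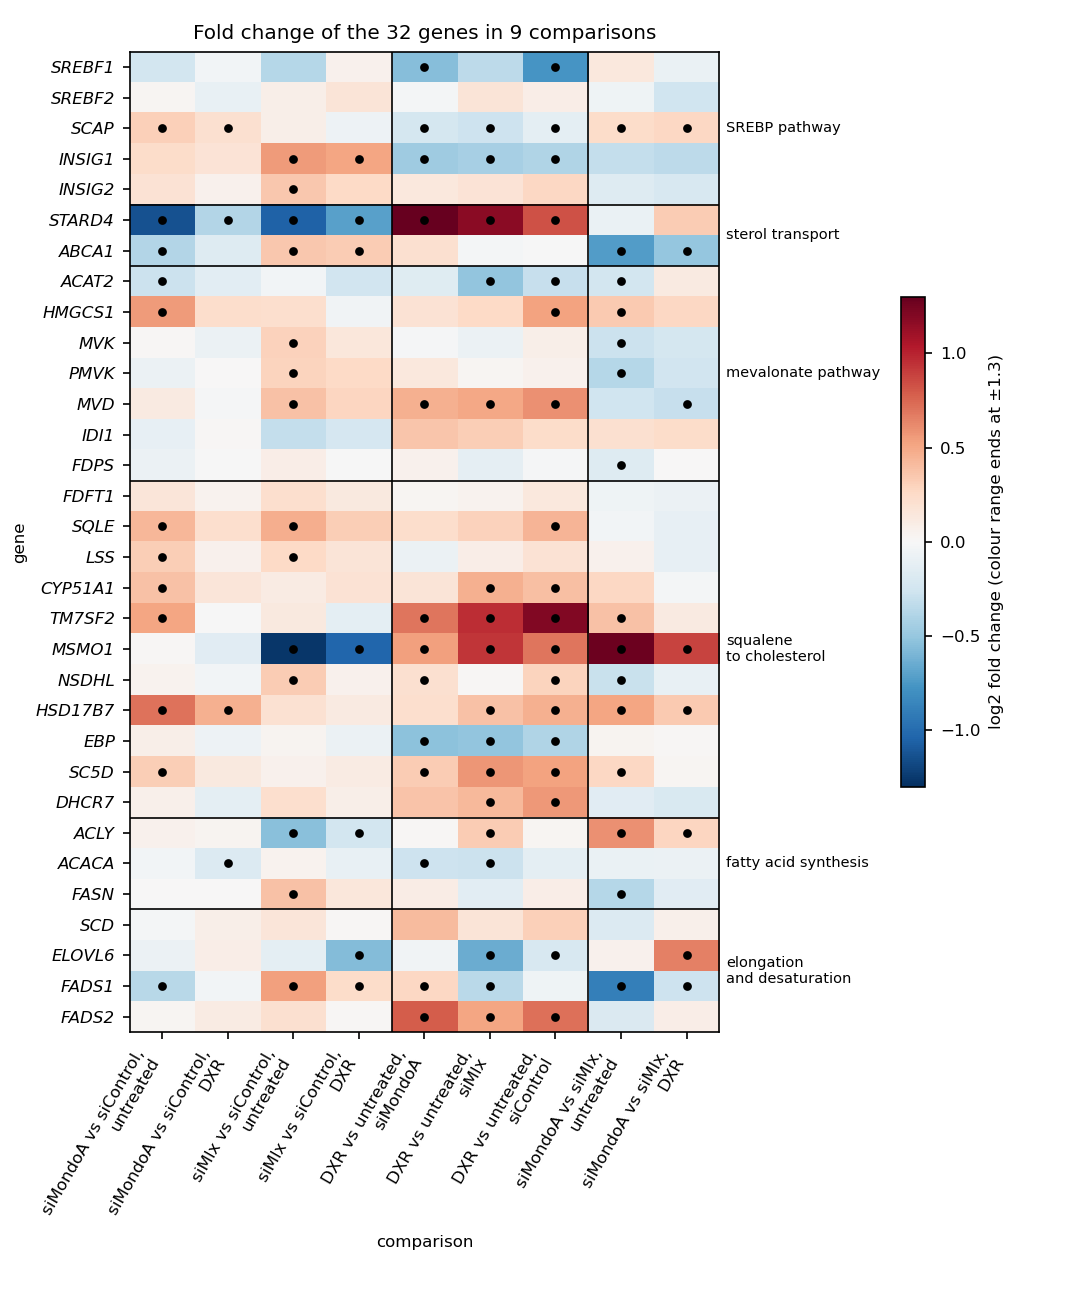
Log2 fold change of the 32 genes (rows, in the order of their roles) in 9 comparisons (columns; knockdown against siControl, DXR against untreated, and siMondoA against siMlx), with red for higher, blue for lower and a black dot where the adjusted p was under 0.05. STARD4 is blue in all 4 knockdown columns and red in all 3 DXR columns, MSMO1 is blue with siMlx alone, FADS1 is blue with siMondoA in untreated cells and red with siMlx, and the steps between squalene and cholesterol are mostly red with DXR except EBP.

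In fatty acid synthesis, ACLY, which splits citrate to cytosolic acetyl-CoA and feeds both pathways, fell with siMlx and not with siMondoA. It had 481, 428 and 492 CPM in siMlx DXR and 587, 543 and 569.8 CPM in siMondoA DXR libraries, against 571, 516 and 566 CPM in siControl DXR libraries. It had 379, 378 and 358 CPM in siMlx untreated and 579, 605 and 504 CPM in siMondoA untreated libraries, against 559.9, 568 and 498 CPM in siControl untreated libraries. The siMlx groups lay below both other groups in each condition, and the siMondoA and siControl groups overlapped. ACLY fell with siMlx by -0.54 ± 0.07, adjusted p = 3.48e-06 in untreated cells, in every alternative, and by -0.24 ± 0.07, adjusted p = 0.0156 in DXR cells, where the call was lost without the first or the third siControl, the second siMlx or all second DXR libraries (adjusted p 3.97e-05 to 0.0901 over 15 alternatives). ACLY was higher with siMondoA than with siMlx by 0.60 ± 0.07, adjusted p = 5.82e-07 in untreated cells. With siMondoA ACLY was not called in untreated cells, with an interval of -0.10 to 0.20 (adjusted p = 0.564). DXR raised ACLY in siMlx cells (0.33, adjusted p = 0.000522) but was not called in siControl cells, with an interval of -0.13 to 0.17 (adjusted p = 0.795). The interaction was not called (0.31, adjusted p = 0.0543). The block called it higher (adjusted p = 0.000374), outside the 4 comparisons whose same-numbered libraries deviated together. Of 16 other genes of acetyl-CoA, NADPH and acyl activation, 5 were higher and 4 lower with siMlx in untreated cells (24.9% and 23% of all genes). With siMondoA 7 were higher and 7 lower there (23.3% of all genes each).

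ACACA, the carboxylase that commits acetyl-CoA to fatty acids, fell modestly with DXR in siMondoA (-0.27, adjusted p = 0.00065) and siMlx cells (-0.28, adjusted p = 0.000355). In DXR cells ACACA was lower with siMondoA than with siControl (-0.18, adjusted p = 0.0296). That call was lost in 7 of 15 alternatives, among them without any single siMondoA DXR library (adjusted p 0.00689 to 0.161). FASN, the fatty acid synthase, had 417, 420.3 and 293 CPM in siMlx untreated libraries, against 308, 316 and 247 CPM in siControl untreated libraries. The third siMlx library lay inside the siControl range, and FASN was higher with siMlx by 0.38 ± 0.13, adjusted p = 0.0244. The call was lost without the third siControl or the first or second siMlx library (adjusted p 3.5e-07 to 0.125 over 15 alternatives). In DXR cells it was called higher with siMlx under the block only (0.15, adjusted p = 0.0134), and lower with siMondoA than with siMlx likewise (adjusted p = 0.0127). With siMondoA FASN was not called in untreated cells, with an interval of -0.28 to 0.28 (adjusted p = 0.998). FASN and ACLY thus lay on opposite sides of the siControl level in siMlx untreated cells.

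Among the desaturases, FADS1 was the member with the smallest SE in untreated cells, and the knockdowns lay on opposite sides of siControl. FADS1 and FADS2 (chr11:61799625-61829318 on the - strand and chr11:61792980-61867354 on the + strand, GRCh38) encode the delta-5 and delta-6 desaturases that make long polyunsaturated fatty acids. FADS1 had 112, 115 and 110.0 CPM in siMondoA DXR and 132, 136 and 137 CPM in siMlx DXR libraries, against 112, 115 and 117 CPM in siControl DXR libraries. It had 94.6, 97.8 and 86.7 CPM in siMondoA untreated and 173, 173 and 171 CPM in siMlx untreated libraries, against 119, 120.3 and 118 CPM in siControl untreated libraries. In untreated cells the 3 groups were fully separate, with siMlx highest and siMondoA lowest. In DXR cells siMlx remained above both others, and siMondoA overlapped siControl.

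FADS1 was lower with siMondoA by -0.36 ± 0.05, adjusted p = 3.97e-06 and higher with siMlx by 0.53 ± 0.05, adjusted p = 1.41e-08 in untreated cells. In DXR cells it was higher with siMlx by 0.24, adjusted p = 0.000758 and not called with siMondoA, with an interval of -0.13 to 0.07 (adjusted p = 0.682). DXR raised FADS1 in siMondoA cells (0.27, adjusted p = 8.77e-05), lowered it in siMlx cells (-0.35, adjusted p = 2.12e-06) and left it uncalled in siControl cells, with an interval of -0.15 to 0.04 (adjusted p = 0.344). Both interactions were called, at 0.33 ± 0.07, adjusted p = 0.00416 for siMondoA and -0.30 ± 0.07, adjusted p = 0.0056 for siMlx, so the distance of each knockdown from siControl was smaller with DXR than without. FADS1 is the 1 member for which both were called.

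FADS2 did not follow FADS1. It had 273, 242 and 250.1 CPM in siMondoA DXR libraries, against 156, 162 and 124 CPM in siMondoA untreated libraries, and 248, 230.1 and 240.5 CPM in siMlx DXR libraries, against 172, 182 and 149 CPM in siMlx untreated libraries. In siControl cells it had 245, 227 and 239.5 CPM with DXR, against 149, 158 and 128 CPM without. All DXR libraries stood above all untreated ones, and FADS2 rose by 0.79 ± 0.09, adjusted p = 7.71e-07, 0.52 ± 0.09, adjusted p = 7.02e-05 and 0.72 ± 0.09, adjusted p = 2.01e-06 in siMondoA, siMlx and siControl cells. Neither siRNA changed it past the threshold in untreated cells, with intervals of -0.17 to 0.22 for siMondoA and 0.02 to 0.40 for siMlx (adjusted p = 0.833 and 0.067). The genes share 490 exonic bases on opposite strands in GENCODE release 29, 4.79% of the exonic bases of FADS1, so some reads are uncertain if strand was not used.

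ELOVL6, which elongates palmitate to stearate, was low in one group. It had 52.0, 54.9 and 67.9 CPM in siMondoA DXR and 34.9, 38.6 and 37.7 CPM in siMlx DXR libraries, against 52.4, 54.9 and 56.8 CPM in siControl DXR libraries. It had 59.6, 57.7 and 63.7 CPM in siMondoA untreated and 54.3, 58.5 and 61.5 CPM in siMlx untreated libraries, against 64.8, 61.8 and 63.4 CPM in siControl untreated libraries. The siMlx DXR libraries were below the other 15 libraries. With siMlx ELOVL6 was lower by -0.56 ± 0.08, adjusted p = 2.49e-05 in DXR cells and was not called in untreated cells, with an interval of -0.29 to 0.04 (adjusted p = 0.201). The fall with DXR was -0.65, adjusted p = 9.78e-07 in siMlx cells and -0.21, adjusted p = 0.0267 in siControl cells, and the interaction was called (-0.44 ± 0.11, adjusted p = 0.0149). The siControl call was lost without the first or the third siControl untreated library, the first siControl DXR library or the third untreated library of every siRNA (adjusted p 0.00479 to 0.0947 over 15 alternatives). The interaction call was lost without the third untreated libraries, without the second DXR libraries, or without the first siMlx DXR library. SCD was called in none of the 9 comparisons, with intervals of -0.40 to 0.36 with siMondoA and -0.22 to 0.53 with siMlx in untreated cells and -0.07 to 0.68 with DXR in siControl cells. SCD5, the other stearoyl-CoA desaturase, fell with siMlx in DXR (-1.60) and untreated cells (-2.36), and rose with DXR in siMondoA (1.18), siMlx (2.04) and siControl cells (1.28). Of the 11 tested genes of this wider elongation and desaturation list, 2 were higher and 3 lower with siMlx in untreated cells (24.9% and 23% of all genes). With DXR in siControl cells 6 were higher and 3 lower (28.1% and 28.6% of all genes). FADS3, the neighbour of FADS1 and FADS2, rose with DXR in siMondoA (0.88), siMlx (1.08) and siControl cells (0.90).

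Of the other lipid gene lists, the isoprenoid branch had 15 genes tested, of which 5 were higher and 4 lower with siMondoA and 4 higher and 4 lower with siMlx in untreated cells, and 4 rose and 7 fell with DXR in siControl cells. COQ2, which makes ubiquinone, fell with DXR in siMondoA (-0.67), siMlx (-1.42) and siControl cells (-1.17). Of 7 tested genes of LXR and oxysterol signalling, 2 were higher and 2 lower with siMondoA and 0 higher and 2 lower with siMlx in untreated cells, among them MYLIP, an LXR target that degrades lipoprotein receptors (-1.08 with siMlx). Of 18 genes of glycerolipid synthesis, 3 were higher and 5 lower with siMondoA and 7 higher and 6 lower with siMlx. Of 19 genes of fatty acid oxidation, 5 were higher and 4 lower with siMondoA and 3 higher and 4 lower with siMlx. Both lists were close to evenly divided by direction. Of all genes in untreated cells, 23.3% were higher and 23.3% lower with siMondoA, and 24.9% and 23% with siMlx. With DXR in siControl cells 28.1% of all genes were higher and 28.6% lower.

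Sequence words in 3' UTRs accompanied the fold changes of other genes and were counted in the members. The 3 words of 7 letters most associated with a lower fold change among 11655 genes outside the 32 were, in untreated cells, TCCAGTA and a pair of words overlapping it for siMondoA. For siMlx they were AATGAGA, a word overlapping it, and CTGGTCA. The words were chosen on these same fold changes, so a larger share of lower genes among their holders follows from that choice. The shares are not adjusted for 3' UTR length. Of genes with a siMondoA word 40.7% were lower with siMondoA, against 21.3% of genes without one. Of genes with a siMlx word 38.4% were lower with siMlx, against 18.5% without. The siMondoA words were in 4 of the 32 members and 20.1% of other genes, and the siMlx words in 10 of the 32 and 30.7% of other genes. STARD4 held 1 siMondoA and 2 siMlx words, MSMO1 held 1 siMlx word and ELOVL6 all 3. ACLY held none, and FADS1, ABCA1 and MVD, which rose with siMlx, held 1 siMlx word each. Besides STARD4, the members with a siMondoA word were FDFT1, DHCR7 and SCD, none of them called with siMondoA in untreated cells. The 3' UTR was 5492 bases long in ELOVL6 and 3853 in STARD4, and these counts of words take no account of length. The part of these words in the fold changes of STARD4, MSMO1 and ELOVL6 was not tested. The siRNA sequences were not given in the sources used here. The summed level of RN7SL1 and RN7SL2, noncoding RNAs of the signal recognition particle that were picked after their values were seen, was 11.4 to 30.1 CPM in siControl untreated libraries and 2.25 to 12.5 CPM in all others, and its part in comparisons with that group was not tested.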

How the data were processed

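Stranded mRNA libraries of RPE-1 cells were sequenced. The submitters' processing notes name bcl2fastq, TopHat2 2.1.1 and the GRCh38 build. Which counter, annotation and strand setting produced the gene values is not stated in what was used here. The authors deposited read counts per gene and, for the same libraries, RPKM values, which scale counts by gene length and library size. Counts served all tests, and RPKM served only to compare levels between genes.

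Groups came from the labels. The count model was edgeR 4.0.16 (R 4.3.3), with filterByExpr by group, TMM scaling, 1 mean per group over 18 libraries, quasi-likelihood tests and Benjamini-Hochberg adjustment over 13676 genes. The procedure was tested on simulated data. Intervals are 95% intervals of the log2 fold change, and counting error is one part of the spread they cover. In 4 of 9 comparisons (siMondoA against siControl in both conditions, and siMlx against siControl and siMondoA against siMlx in DXR cells), every pair of same-numbered libraries correlated above 0.1 in their deviations from group means, and overall 18 of 27 pairs did, with a range of -0.09 to 0.33. The pairing rests on these data and on shared numbers in the labels.

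The members and the 14 other gene lists were chosen with earlier results of these data known. Any member could be named. From the other lists, up to 4 genes with the smallest adjusted p in a comparison could be named. Alternatives were upper-quartile and RLE scaling, other filters, DESeq2 1.42.0, fits of the compared groups only, replicate blocks and left-out libraries. Positions and 3' UTRs came from GENCODE release 29, and promoters from RefSeq.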

Additional observations from a re-analysis of the deposited data

Results flagged for a closer look

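In 3 genes the effect of a knockdown differed between DXR and untreated cells by edgeR's interaction test. STARD4 had an interaction of siMondoA with DXR of 0.748 on the log2 scale (adjusted p = 0.0202), with all 3 libraries of each siMondoA group below the mean of its siControl group. The call was lost without the first siMondoA untreated library or without the third siMondoA DXR library. FADS1 had an interaction of 0.325 with siMondoA (adjusted p = 0.00416) and of -0.2983 with siMlx (adjusted p = 0.0056), and the siMlx call was lost without the second DXR libraries. ELOVL6 had an interaction of siMlx with DXR of -0.4361 (adjusted p = 0.0149). No explanation was tested.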

How the results depend on the processing

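Over 112 called results of single members, no direction changed under any alternative run, and 67 kept their call in all of them. Upper-quartile scaling lost 3 calls, RLE scaling 0, no low-count filter 5, the filter of 1 CPM in 3 libraries 0, fits of the compared groups only 5, DESeq2 3, leaving out the third untreated libraries 16 of 93 and leaving out the second DXR libraries 12 of 71. The last pair of alternatives and the block within each condition were chosen after the data were seen. Under the replicate block over all libraries siMlx changed 11 members in DXR cells, against 7 without it. Under the block within each condition, the members changed were 9 with siMondoA and 18 with siMlx in DXR cells, 17 between the knockdowns in DXR cells, 7 for the interaction of siMondoA with DXR (19.9% of all genes) and 9 for that of siMlx (22.3%), against 4, 7, 8, 2 and 2. The blocks lost none of the called results. In untreated cells the siMlx comparisons were not paired by the rule. The block raised the number of members called in both of them, to at most 1.5 times the original. There the block also called FADS2, FDFT1, SCD, HMGCS1 and DHCR7 higher and SREBF1 and IDI1 lower with siMlx (adjusted p = 0.000139, 0.000218, 0.00323, 0.00247, 0.000994, 4.35e-06 and 0.00292). Between the knockdowns in untreated cells it called SREBF1 and CYP51A1 higher with siMondoA than with siMlx (adjusted p = 0.0454 and 0.000119). INSIG1, MVD, DHCR7, SCD and FADS2 were called lower there (adjusted p = 3.76e-06, 0.00154, 0.00787, 0.00109 and 0.000382). The block also called positive siMlx interactions for SREBF1, STARD4 and ACLY (adjusted p = 0.000441, 0.0317 and 0.000374) and negative ones for HMGCS1, NSDHL, FASN and FADS2 (adjusted p = 0.0222, 0.0371, 0.0166 and 0.015). Without a low-count filter 13 members differed between the knockdowns in DXR cells and 4 were called for each interaction. Without the third untreated libraries 9 differed between the knockdowns in untreated cells, and without the second DXR libraries 2 changed with siMondoA and 1 was called for the interaction of siMlx. The cause was not tested. Leaving out single libraries gave 2 to 4 members for siMondoA in DXR cells, 2 without the first or the third siControl DXR or the first or second siMondoA DXR library. It gave 8 to 14 for siMlx in untreated cells (8 without its second library), 4 to 8 for siMlx in DXR cells (4 without the third siControl DXR library) and 1 to 3 for each interaction (1 for siMondoA without its first untreated library or the third DXR library, 1 for siMlx without its first DXR library, where fewer libraries enter the fit). Counts in this paragraph without a share of all genes cannot show whether the members alone moved or genes at large did. With 3 libraries per group, differences under about the intervals printed were not detectable.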
